A study of Drosophila melanogaster with 6 samples.

Results

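The genes described are the 8 circadian clock genes per, tim, Clk, cyc, vri, Pdp1, cry and cwo of Drosophila melanogaster, taken by symbol from a table of 11491 genes expressed in the testis. All 8 were present. Poly(A) libraries of whole testes from adult flies fall into Zeus KO, with 3 libraries, and the control injection line, which the sample labels call WT, with 3 libraries. Both groups come from strain BDSC #25710, which carries the y[1], sc[1], v[1] and sev[21] alleles, a phiC31 integrase driven in the germline by nos, and an attP2 landing site. The Zeus KO flies carry CRISPR-Cas9 frameshift deletions in the coding sequence of Zeus, a retroposed copy of Caf40, which encodes a subunit of the CCR4-NOT complex. The methods speak of deletion lines in the plural, and the line of each library, the age of the males beyond adult and the hour of dissection are not given in the sources used here. Flies were kept under 12 h of light and 12 h of dark at 25 °C, and the material of each replicate stayed in PBS for 1 to 2 days.

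The fly clock is a pair of transcriptional loops. CLK and CYC, which bind DNA together as a bHLH-PAS heterodimer, activate per, tim, vri, Pdp1 and cwo through E-boxes, and PER and TIM return to the nucleus to inhibit them. VRI represses and PDP1 activates Clk, CWO competes at E-boxes, and the blue-light receptor CRY directs TIM to degradation after light. In fly tissues with a running clock, transcripts of per, tim, vri, Pdp1 and cwo peak in the evening or early night and those of Clk and cry around dawn, while cyc does not cycle. In males of this species, clock proteins cycle in the epithelium of the seminal vesicle and the base of the testis, and clock mutants have reduced sperm release and fertility.

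The libraries held between 12533272 and 18846182 sequenced reads. The deposited table gives for each gene the mean of size-factor-normalized reads in each group. Each library enters such a mean with whole reads times a fixed weight, so the reads of the single libraries could be solved for 11178 genes (97.3%), and all 8 clock genes were among them. The solved libraries carry no replicate number, so they are called a, b and c within each group in order of increasing size factor. A size factor scales a library for its depth, and values below are normalized reads unless stated otherwise. For the groups compared, limma's moderated test was run on log2(value + 1) over 11164 genes with a mean of at least 1, and a gene was called at a Benjamini-Hochberg adjusted p under 0.05 with a fold change of at least 1.5. Of all genes tested, 4.06% were called, with 241 genes (2.16%) higher and 212 (1.9%) lower in Zeus KO. Zeus itself, listed as Rcd-1r, had 289 ± 34.2 normalized reads in Zeus KO and 346 ± 31.6 in control (SD, n = 3 each), which does not check the labels, because reads of alleles with small deletions are still counted and all 1184 exon bases of Rcd-1r lie within exons of CG13102 on the opposite strand. Whether the authors counted by strand is not given in the sources used here.

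None of the 8 clock genes was called in either direction, against the 2.16% of genes called higher and the 1.9% called lower, and none reached a fold change of 1.5, which is 0.58 on the log2 scale. Means of 7 were higher in Zeus KO and that of Clk was lower. At an unadjusted p under 0.05 in limma's test there were 5 genes, namely cyc, cry, Pdp1 and cwo on the higher side and Clk on the lower, against 18.9% of all genes tested. The voom form of limma also called 0 of the 8. The adjusted p was under 0.1 for cyc, cry and Pdp1, as for 7.62% of all genes. Libraries of the groups did not overlap for Clk, cyc, Pdp1 and cry, that is for 4 of 8, against 23.4% of all genes tested. The median log2 fold change of the 8 was 0.35, and that of all genes tested was 0.0031.

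**Figure D1:**
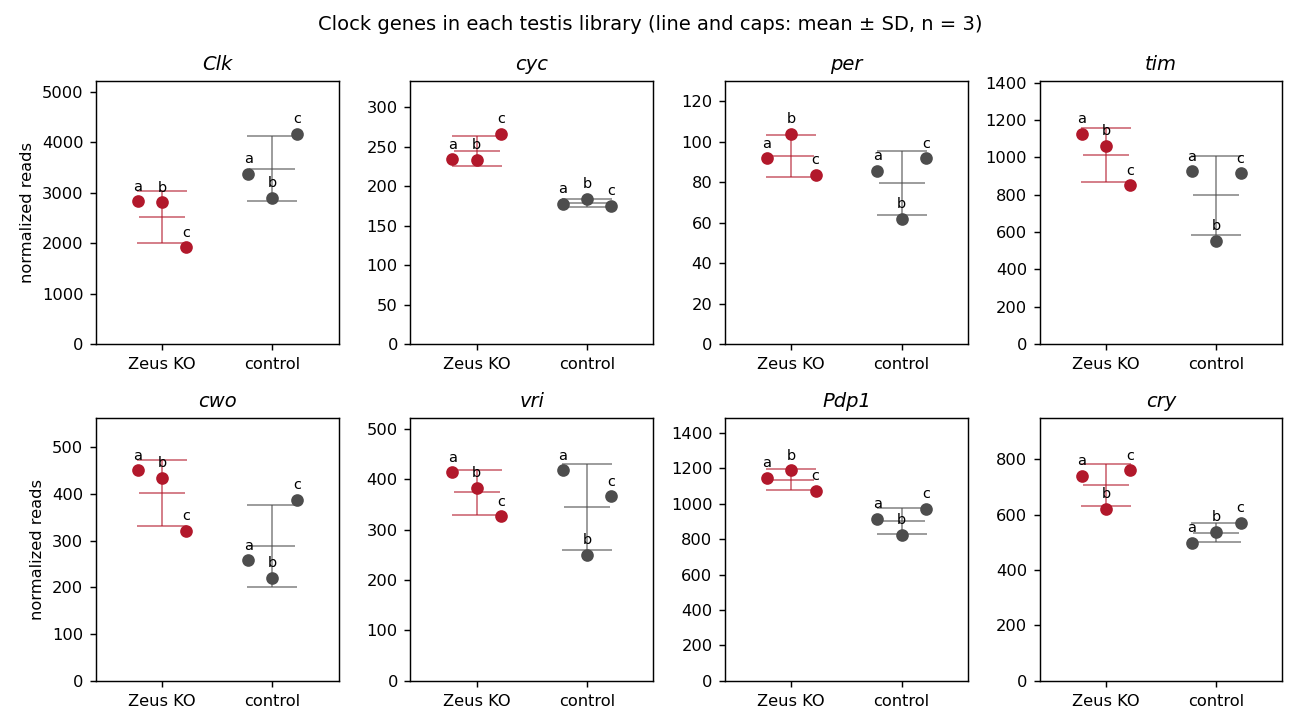
Normalized reads (vertical axes, from 0) of the 8 clock genes in each library, with Zeus KO in red on the left and control in grey on the right of each panel, letters naming the libraries a to c, and lines and caps giving mean ± SD of n = 3. The points of the groups are apart for Clk, cyc, Pdp1 and cry and overlap for per, tim, cwo and vri, and control library b is the lowest point of the control in 6 of the 8 panels.

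Among the activators, Clk (FBgn0023076) had the most normalized reads of the 8 clock genes, counted over all its transcripts. It had 2832, 2813 and 1918 normalized reads in Zeus KO libraries a, b and c, against 3373, 2898 and 4175 in the control libraries. Zeus KO library c was far below the other libraries of its group and control library c far above those of its own, and the highest Zeus KO library lay just below the lowest control library. On the log2(value + 1) scale the fold change was -0.47 (standard error 0.164, 95% interval -0.83 to -0.11, adjusted p = 0.147 from limma). An exact permutation test (2-sided) gave p = 0.1, the smallest that 3 libraries against 3 allow. Leaving out Zeus KO library c brought the difference to its smallest size, -0.29, with an adjusted p of 0.214 from limma, and over all fits without a library the adjusted p lay between 0.0793 and 0.358.

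In the Ensembl annotation, which has the dm6 coordinates, Clk spans 7763233 to 7775603 of chromosome 3L (minus strand) with 5 transcripts. Within it, on the same strand and outside its exons, lies CG32371 (7767269 to 7768352), which has 1 exon. Of the Clk transcripts, 2 start at 7767230, separated from the end of CG32371 by 38 bases, and their exons hold 83.4% of the exon bases of Clk. The table counts reads by gene, so the long and the short Clk transcripts cannot be told apart in it. CG32371 was itself abundant, with 6424, 6081 and 5794 normalized reads in Zeus KO libraries a, b and c and 8101, 6650.5 and 6455 in the control libraries, and its log2 fold change was -0.21 with an adjusted p of 0.310 from limma (standard error 0.104). The log2 ratio of Clk to CG32371 in normalized reads was -1.30 ± 0.261 in Zeus KO and -1.03 ± 0.349 in control (SD, n = 3 each), and its libraries overlapped between the groups.

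**Figure D2:**
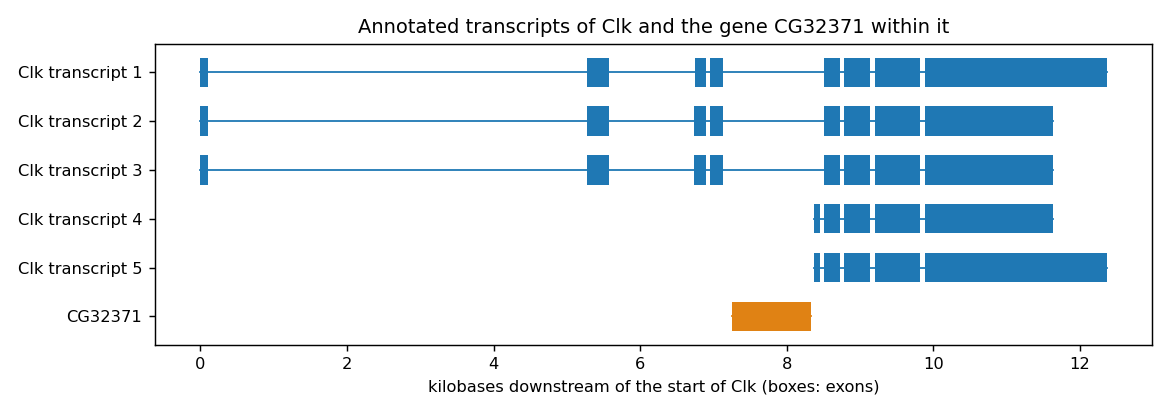
Exons (boxes) of the 5 annotated Clk transcripts and of CG32371, plotted as kilobases downstream of the start of Clk. CG32371 sits in an intron of the long transcripts, and the 2 short Clk transcripts start 38 bases beyond its end.

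The partner of Clk, cyc (FBgn0023094, chromosome 3L, 19813770 to 19815938), differed the other way. Its values were 234, 233 and 266 normalized reads in Zeus KO and 178, 184 and 175 in control. The control libraries lay close together, and every Zeus KO library lay above them. Its log2 fold change was 0.45 (standard error 0.128, 95% interval 0.17 to 0.73, adjusted p = 0.0746 from limma), and the exact permutation p was 0.1. Per kilobase of exon, the ratio of Clk to cyc reads was 4.36, 4.33 and 2.59 in Zeus KO libraries a, b and c and 6.83, 5.68 and 8.59 in the control libraries. This ratio, chosen after the values were seen and not tested, did not overlap between the groups. That follows from the groups lying apart for Clk and for cyc in opposite directions.

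Of the genes that encode the repressors, per (FBgn0003068, chromosome X, 2685580 to 2692780) was the least abundant, with 48 to 97 reads per library. Its 91.7, 104 and 83.5 normalized reads in Zeus KO overlapped with 85.5, 61.6 and 91.7 in control. The log2 fold change of 0.24 (95% interval -0.20 to 0.67) did not pass limma's test (adjusted p = 0.573), and without control library b it was 0.065 (adjusted p = 0.933). The partner of PER is encoded by tim (FBgn0014396, chromosome 2L, 3493986 to 3508119). It had 1127, 1059 and 849.7 normalized reads in Zeus KO libraries a, b and c, against 925, 553 and 914 in the control libraries. Control libraries a and c lay between the Zeus KO libraries, and control library b stood well below all others. The log2 fold change was 0.37 (standard error 0.186, 95% interval -0.04 to 0.78, adjusted p = 0.309 from limma), and without control library b it was 0.13 (adjusted p = 0.736). An antisense non-coding RNA, lncRNA:CR46495, which was not analysed here, overlaps 7.74% of the exon bases of tim.

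The E-box repressor cwo (FBgn0259938, chromosome 3R, 10388258 to 10400752) had the largest difference of the 8. Zeus KO libraries a, b and c held 451, 434 and 321 normalized reads and the control libraries 258, 219.5 and 387, so that control library c lay within the range of Zeus KO. For cwo the log2 fold change was 0.50 (standard error 0.202, 95% interval 0.06 to 0.95, adjusted p = 0.207 from limma). Without control library c it was 0.74, and cwo passed the limits for a call (adjusted p = 0.0214), while without control library b it was 0.33 (adjusted p = 0.492). In none of the other 5 fits that left out a library did a clock gene pass them.

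The second loop consists of vri and Pdp1. For vri (FBgn0016076, chromosome 2L, 5288944 to 5311223), Zeus KO held 413, 382 and 326 normalized reads and control 417, 250.4 and 366, a log2 fold change of 0.14 (95% interval -0.25 to 0.54, adjusted p = 0.717 from limma). Without control library b the value was -0.07, so its sign rests on that library. For Pdp1 (FBgn0016694, chromosome 3L, 7811458 to 7867369), which lies 35.9 kb from Clk on the same strand and has 13 annotated transcripts, the values were 1143, 1188 and 1071 in Zeus KO and 912, 824 and 971 in control. All Zeus KO libraries of Pdp1 exceeded all control libraries. The log2 fold change was 0.33 (standard error 0.102, 95% interval 0.11 to 0.56), with an adjusted p of 0.0996 from limma and an exact permutation p of 0.1.

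The photoreceptor gene cry (FBgn0025680, chromosome 3R, 19212154 to 19215442) had 739, 621 and 759 normalized reads in Zeus KO libraries a, b and c, against 499, 537 and 569 in control. The groups were apart, with Zeus KO library b nearest to control. The log2 fold change was 0.40 (standard error 0.115, 95% interval 0.14 to 0.65, adjusted p = 0.0792 from limma), and the exact permutation p was 0.1. A non-coding RNA on the same strand, lncRNA:CR46393, overlaps 17.4% of the exon bases of cry and was not analysed here.

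**Figure D3:**
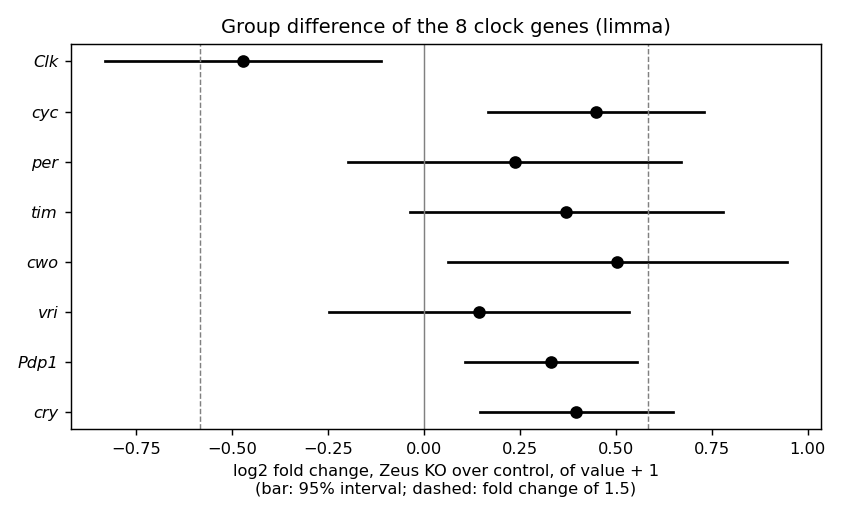
Log2 fold change between Zeus KO and control, positive where Zeus KO is higher (horizontal axis, on the log2(value + 1) scale) for each clock gene, with its 95% interval from limma as a bar and dashed lines at a fold change of 1.5. Clk is the only gene left of 0, at -0.47, the intervals of per, tim and vri include 0, and no point lies beyond the dashed lines.

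Levels were compared between the genes per kilobase of exon. In Zeus KO the order was Clk (558 normalized reads per kilobase), cry (373), cyc (151), tim (144), Pdp1 (93.4), vri (78.9), cwo (78.9) and per (20.5). In control it was Clk (771), cry (282), tim (113), cyc (110.0), Pdp1 (74.3), vri (72.7), cwo (56.6) and per (17.6). The libraries of tim and cyc overlapped in both groups, as did those of vri and cwo, and those of Pdp1 and vri overlapped in control. Every other step between neighbours in the order exceeded the range of the libraries. Some genes that were not neighbours also overlapped. In control, tim (78.6 to 131) overlapped with Pdp1 (67.9 to 80.0) and with vri (52.8 to 88.0). The libraries of Pdp1 and cwo overlapped in both groups. Among all solved genes with an exon length, Clk lay at the 75.9th percentile of levels per kilobase in Zeus KO and the 80.8th in control, and per at the 12.7th and the 11.5th.

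The genes were also compared by the time of day at which they peak in other fly tissues. The mean log2(value + 1) of per, tim, vri, Pdp1 and cwo minus that of Clk and cry was -1.60 ± 0.0832 in Zeus KO and -1.95 ± 0.207 in control (SD, n = 3 each), a difference of 0.35 with no overlap between the groups. Set against Clk, the mean of the evening genes was -2.51 ± 0.154 in Zeus KO and -3.30 ± 0.129 in control, with no overlap between the groups. Against cry it was -0.69 ± 0.290 in Zeus KO and -0.61 ± 0.309 in control, and the libraries overlapped. Of the dawn genes, Clk differed by -0.47 and cry by 0.40, and cyc, which does not cycle, differed by 0.45. None of these passed the adjusted p limit in limma's test. No test was run on the means over the members, and the part of the hour of dissection was not tested.

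Within each group, the evening genes had their lowest values in the same library. In Zeus KO, library c was the lowest for each of per, tim, vri, cwo and Pdp1. In control, library b was the lowest for each of the 5. The spread within groups on the log2 scale was 0.35 for cwo, 0.34 for tim, 0.30 for vri, 0.29 for Clk and 0.24 for per, against a median of 0.18 over all genes tested, and it was 0.13 for cry, 0.10 for Pdp1 and 0.08 for cyc. In control, tim and cwo stood at the 91.0th and 90.8th percentile of all genes for this spread, and cyc at the 3.53rd. Clk did not mirror them, since it was lowest in the same libraries, at 1918 in Zeus KO library c and 2898 in control library b. Other genes differed between the same libraries. The summed level of the 17 tested kinase, phosphatase and turnover genes was also lowest in them, at 26899.5 in Zeus KO library c, against 30674 and 30275 in libraries a and b, and at 26616 in control library b, against 27936 and 30100.2 in libraries a and c. The sums over the tested clock translation and mRNA regulators, bHLH-PAS relatives, early germline and cyst cell, fat body, muscle, and neuron and photoreceptor genes were likewise lowest in these libraries of each group, so the low values were not particular to the evening genes. In contrast, the summed level of 9 spermatocyte and spermatid markers was highest in them, at 17348 in Zeus KO library c, against 16045 and 15170 in libraries a and b, and at 18334 in control library b, against 15697 and 15539 in libraries a and c. That over 14 tested seminal fluid genes was also highest there, at 41713 in Zeus KO library c and 52894 in control library b. The sum over 7 genes of light input and cryptochrome relatives was highest there too, at 763 and 738 in the same order. The part of cell make-up in these differences between libraries was not tested, and in whole testes fewer cells of a type and less RNA per cell cannot be told apart.

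**Figure D4:**
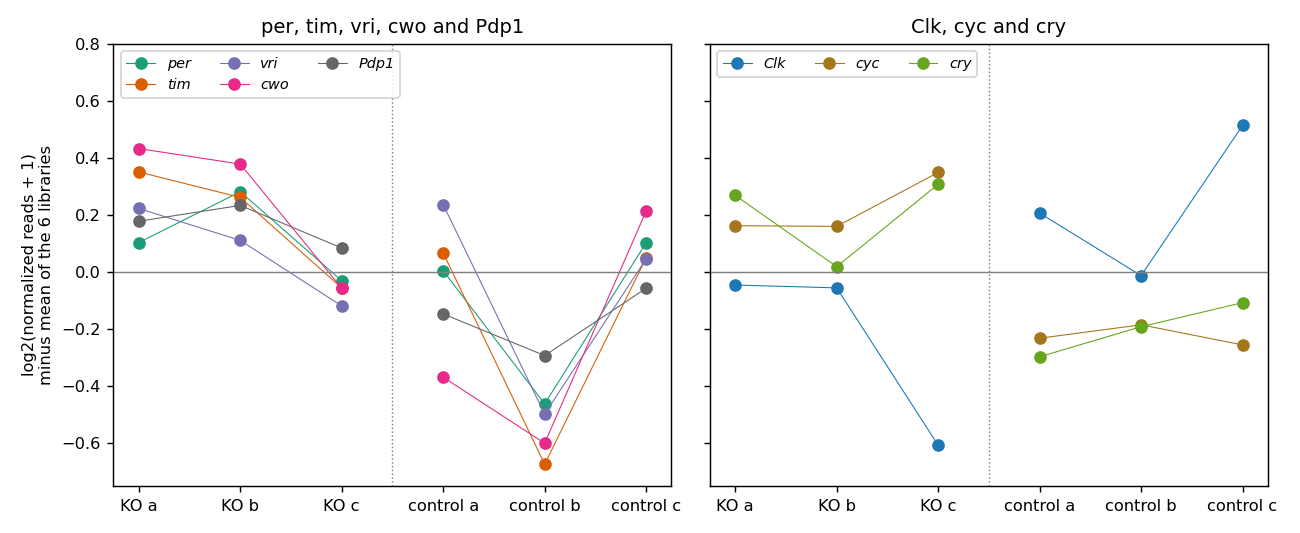
Log2(normalized reads + 1) minus the mean of the 6 libraries (vertical axis) for per, tim, vri, cwo and Pdp1 (left panel) and for Clk, cyc and cry (right panel), with Zeus KO libraries a to c left of the dotted line and control libraries a to c right of it. Thin lines join the values of 1 gene and imply no order. All 5 genes of the left panel are lowest at Zeus KO c within Zeus KO and at control b within control, while cyc and cry lie above 0 in every Zeus KO library and below 0 in every control library.

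By root mean square difference of their centred log2 values over the 6 libraries, the genes most like tim among 9564 with a mean of at least 50 were CG42399 (0.0380) and Zir (0.0603). CG42399 had 389, 350.2 and 275 normalized reads in Zeus KO libraries a, b and c and 304, 193 and 305 in the control libraries. For Clk they were Tet (0.0945), which encodes a DNA demethylase homolog, and vir (0.0953), which acts in mRNA methylation and sex determination. Of the clock genes, vri ranked 93rd in likeness to tim, per 120th, cwo 729th, Pdp1 791st, cry 3296th, cyc 3601st and Clk 7312th. Within each library all genes were divided by the same size factor, and likeness over 6 libraries is a description only.

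Around the core lie kinases, phosphatases and ubiquitin pathway genes that act on the clock proteins and their decay, listed here together with the coactivator gene nej. Among the 19 genes of this list, 17 were tested, of which 0 were called by limma and 1 had an unadjusted p under 0.05, with a median log2 fold change of 0.03. Bdbt, a partner of the kinase DBT, had 128, 98.5 and 178 normalized reads in Zeus KO against 168, 195 and 175 in control, a log2 fold change of -0.45 (adjusted p = 0.253 from limma). Leaving out Zeus KO library c made it -0.67 (adjusted p = 0.0448), and leaving out Zeus KO library b made it -0.25 (adjusted p = 0.655). Those of nej, which encodes CBP, and dco, which encodes DBT itself, were 0.36 and 0.22 (adjusted p = 0.346 and 0.330).

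Regulators of clock mRNAs include Atx2 and tyf, which promote translation of per, and the CCR4-NOT subunit Pop2, which shortens the poly(A) tail of tim mRNA in flies. Of the 9 listed 6 were tested, of which 0 were called and 0 had an unadjusted p under 0.05 in limma's test. The largest differences were 0.24 for Atx2, 0.17 for tyf and 0.17 for gw, with adjusted p between 0.489 and 0.645.

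Output genes held the single call among these lists, while 4.06% of all genes tested were called. Pdfr, the receptor for the clock neuropeptide PDF, was higher in Zeus KO, with 95.7, 97.5 and 64.8 normalized reads in its libraries a, b and c, against 35.5, 42.4 and 46.9 in control. Its log2 fold change was 1.02 (standard error 0.225, 95% interval 0.52 to 1.51, adjusted p = 0.0221 from limma). The call was lost without Zeus KO library a, Zeus KO library b or control library a, with adjusted p of 0.114, 0.120 and 0.119 and log2 fold changes between 0.91 and 0.93. Of the 14 genes of this list 1 was called higher and 0 lower, and its median log2 fold change was -0.08. At an unadjusted p under 0.05 in limma's test it had 3 higher and 3 lower genes, against 18.9% of all genes tested.

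Among 7 genes of light input and cryptochrome relatives 0 were called, and 1 higher and 2 lower gene had an unadjusted p under 0.05 in limma's test. The phospholipase C gene of phototransduction, norpA, had 254, 265 and 294 normalized reads in Zeus KO and 172, 181 and 202 in control. It passed the adjusted p limit (log2 fold change 0.55, adjusted p = 0.0355 from limma) but not the fold limit, and it lost the adjusted p limit without any library other than control library c and with median centring (adjusted p = 0.0509). The opsin genes Rh5 and Rh4 differed by -0.65 and -0.45 (adjusted p = 0.166 and 0.129). The list of bHLH-PAS and PAR bZIP relatives held 10 genes, of which 9 were tested, all of them of the bHLH-PAS family. Of these 0 were called, and 2 higher and 1 lower gene had an unadjusted p under 0.05 in limma's test. The log2 fold changes farthest from 0 were -0.85 for trh, a regulator of tracheal development, 0.57 for dysf and -0.55 for ss, with adjusted p between 0.130 and 0.361 from limma.

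**Figure D5:**
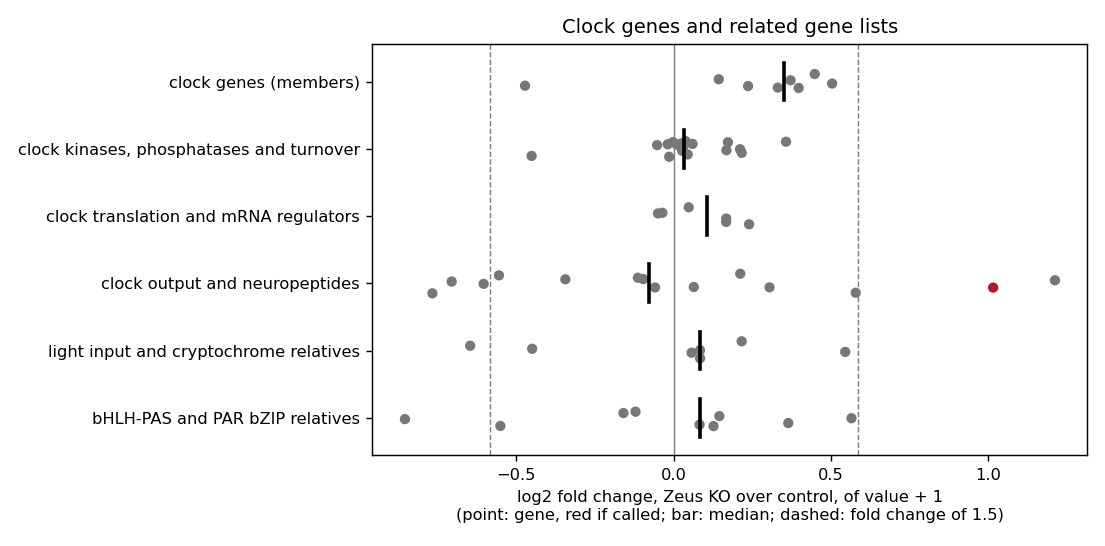
Log2 fold changes between Zeus KO and control, positive where Zeus KO is higher (horizontal axis, on the log2(value + 1) scale) for the 8 clock genes and 5 lists of related genes, 1 point a gene, red where called, with the median of each row as a bar and dashed lines at a fold change of 1.5. The median of the clock genes is 0.35 and those of the lists lie between -0.08 and 0.11, and Pdfr is the red point.

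Markers of other tissues differed between the groups. Among all genes tested, 2.16% were called higher and 1.9% lower. Of 23 digestive gut genes 5 were called higher and 10 lower in Zeus KO by limma, and their summed level was 19997 to 23980 in Zeus KO libraries and 36674 to 37752 in control. For 11 fat body genes (1 called higher, 2 lower) it was 3712 to 4798 in Zeus KO and 4939 to 6712 in control, and for 14 tested seminal fluid genes (0 higher, 3 lower) 28168 to 41713 in Zeus KO and 41727 to 52894 in control. For 3 tested ejaculatory duct and bulb genes (1 higher, 0 lower) the libraries overlapped, at 7164 to 9561 in Zeus KO and 8329 to 9429 in control. The sum over 17 muscle genes (3 higher, 1 lower) was 31734 to 34223 in Zeus KO and 25957 to 29677 in control, and that over 10 neuron and photoreceptor genes (1 higher, 0 lower) 720 to 841 in Zeus KO and 652 to 803 in control. The median log2 fold change of the 17 muscle genes was 0.34, against 0.35 for the 8 clock genes. Of these muscle genes, 11 higher and 1 lower had an unadjusted p under 0.05 in limma's test, against 18.9% of all genes tested. None of the markers in the table was at 0 in either group. None of 9 tested spermatocyte and spermatid markers and none of 12 early germline and cyst cell markers was called, and betaTub85D, the testis-specific tubulin, had a deposited mean of 41208 in Zeus KO and 43257 in control. The deposited means of the sperm tail gene dj were 16226 in Zeus KO and 19507 in control and those of Mst87F 23775 in Zeus KO and 27682 in control, and over all 20 spermatocyte and spermatid markers 14 means were lower in Zeus KO, with a median log2 ratio of -0.12 and no test. Over the 22 seminal fluid markers with group means, 21 means were lower in Zeus KO, with a median log2 ratio of -0.51 and no test. Clock genes are expressed in fat body, gut and neurons as well as in the reproductive tract, and the part of these tissues and of muscle in the clock gene differences was not tested.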

How the data were processed

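The authors mapped reads to dm6 with STAR, assigned them to genes by featureCounts, and used DESeq2, edgeR and limma for the comparison. Their columns of fold changes, p-values and calls were not used. The deposited signal is the mean over the 3 libraries of a group of reads divided by size factors, without length correction. From the authors' FastQC summary came the deposited count of sequenced reads and the percent left after removal of duplicates (31.4 to 38.5), while 4 other columns of values for single libraries were left out. Library names of that summary were matched through the paper's alignment table.

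Group means up to 8000 were solved for whole reads (numba 0.67.0). Within rounding error of the deposited digits, 11178 genes had 1 solution, 9885 of them under a narrower tolerance, and the 313 others hold 36.2% of normalized reads. The solved values were tested with limma 3.58.1 (R 4.3.3) with a trend on log2(value + 1), which understates changes of low genes. The fit was checked on simulated data with the same dispersion for all genes and with changes larger than those of the clock genes. That check does not show how well differences as small as theirs are found. The authors describe the replicates as biological triplicates, and p-values measure the spread between these libraries. All 8 clock genes were described. Called genes of each related list were named, or else up to 3 with the largest differences and a mean of at least 10, and the 2 genes nearest to tim and to Clk. Members and lists were chosen with earlier results of these data known. Exon lengths and positions are from Ensembl release 115. Reads shared by paralogs or overlapping genes are uncertain.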

Additional observations from a re-analysis of the deposited data

How the results depend on the processing

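Of 128 values of the 8 clock genes under 10 other settings and 6 fits without 1 library, 126 kept their direction and, where the setting gives a p, their side of the adjusted p limit. The ratio of the deposited group means gives no p. The exceptions were vri, between -0.070 (without control library b) and 0.30 with a library left out, and cwo, past the limit without control library c. The sign of gw also turned without control library b, its range being -0.016 to 0.32. The number of clock genes called ranged between 0 and 1 with a library left out, and was 3 at an adjusted p under 0.1 with no fold limit, an alternative chosen after seeing the data. Over all genes, limma called 453, between 297 (without control library a) and 557 with a library left out, 293 at an adjusted p under 0.01, and 851 at an adjusted p under 0.1 with no fold limit. The evening minus dawn difference lay between 0.24 and 0.45 with a library left out. Median centring used the library medians of genes with a mean of at least 10, which on average were 0.04 higher in Zeus KO on the log2 scale. Where a library was left out, the pair left in that group carries its spread with the other group. No paired analysis was possible because the solved libraries carry no replicate numbers. At 48 to 97 reads per library, per has the largest counting error of the 8.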

Other observations

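Among the clock output genes, takeout (to), a clock-controlled gene of feeding and male courtship, was noted after its values were seen. It had 22.6, 19.3 and 24.9 normalized reads in Zeus KO libraries a, b and c, against 6.58, 10.3 and 10.7 in the control libraries, so that the groups did not overlap. Its log2 fold change was 1.21 (standard error 0.351, 95% interval 0.44 to 1.98, adjusted p = 0.0783 from limma), which did not pass the limit. The sodium leak channel gene na, whose channel conveys clock signals in pacemaker neurons, had 91.7, 111 and 72.8 normalized reads in Zeus KO and 145, 110.4 and 165 in control, with a log2 fold change of -0.60 (adjusted p = 0.139 from limma).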
